A study of Mus musculus with 2 samples.

Results

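The genes described here are 10 genes of the actin cytoskeleton and of serum response factor (SRF), a transcription factor that drives many of them. They were chosen by symbol: Actb, Actg1, Srf, Vcl, Tpm1, Tpm4, Cfl1, Pfn1, Tagln2 and Myl12a, taken as all of their transcripts that the GENCODE M21 annotation calls protein coding. These are 40 transcripts of 10 genes, among 49490 protein-coding transcripts of 21587 genes in the table. All 10 genes, with all 40 transcripts, had a mean exon value of at least 10 and none was lost to the filter on low values. The RNA came from wild-type mouse embryonic stem cells (mESC) of the line DTCM23/49 XY, depleted of feeder cells and grown on gelatin in medium with serum and leukemia inhibitory factor to 70 to 80% confluency. The pulse was 200 µM 4-thiouridine (4sU), a uridine analogue that transcripts take up as they are made, given for 10 min. Thiolated RNA was then biotinylated and captured on streptavidin beads, which gave a labeled pool of newly transcribed RNA and an unlabeled pool of preexisting RNA. Each pool was sequenced as 1 library of replicate 1, and both libraries share the line, medium and pulse.

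With 1 library per pool there was no test, no error can be given for any value, and every difference below compares 2 libraries without a replicate check. The second library is called total RNA in one of its labels and preexisting RNA in another, and it was read as unlabeled RNA. Depth is unknown because the table holds relative abundances per length, on a scale 10 times that of TPM, with no read counts. The markers of embryonic stem cells were all detected, and the summed exon value of 6 of them was 2507 in labeled and 4790 in unlabeled RNA. Of 7 markers of feeder fibroblasts, 2 in labeled and 3 in unlabeled RNA were listed at 0 and their sums were 9.35 and 22.8. The sums of 6 markers of differentiated cells were 74.5 and 78.2, of which Pax6 had 68.7 and 70.5. The sums of 6 muscle markers were 80.3 and 156.8, with 29.8 and 89.7 from the skeletal muscle actin Acta1 and 42.6 and 47.2 from Tnnt2, and the muscle regulators Myod1 and Myog were listed at 0. In RNA from many cells, fewer cells with a transcript and less RNA per cell cannot be told apart.

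SRF binds a short DNA element called the CArG box. It works with myocardin-related cofactors (MRTFs), which bind monomeric actin and enter the nucleus when monomers are used up in filaments, or with ternary complex factors, which respond to growth factor signaling. Its targets therefore include actin itself, proteins that bind actin and immediate early genes. In embryonic stem cells actin filaments underlie the cell cortex, the contacts between cells of a colony and adhesion to the substrate.

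The sequences below show where a CArG box lay near the start of these genes. Promoter sequences of 300 bases, from 250 before to 50 after a gene's start, were taken from RefSeq on GRCm38.p6 and matched by symbol for 9 of the 10 genes, all but Actb. A match to the CArG consensus, a palindrome read on both strands, was found for 3 of the 9, Actg1, Srf and Vcl, and in 535 of all 32851 promoters (1.63%). Each window runs 5′ to 3′ on the gene's strand and the capitals mark the match. Windows are at chr11:120348556-120348605 for Actg1 and chr17:46556195-46556264 for Srf, both on the minus strand, and at chr14:20929151-20929200 on the plus strand for Vcl.
Actg1: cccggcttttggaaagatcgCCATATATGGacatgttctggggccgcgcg
Srf: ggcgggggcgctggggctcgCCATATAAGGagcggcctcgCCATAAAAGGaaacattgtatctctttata
Vcl: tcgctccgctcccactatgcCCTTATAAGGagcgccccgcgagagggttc
The match began 90 bases before the start of Actg1 and 227 bases before that of Vcl. Srf had 2 matches, beginning 82 and 62 bases before its start, and only 6 of the 32851 promoters held 2 or more. Among other cytoskeletal targets of SRF, 6 of 20 with an entry held a match (Acta1, Actc1, Cnn2, Fhl2, Filip1l and Myl9), and among immediate early targets 1 of 6 did (Egr2). None of 8 tubulin genes with an entry held one. A match is a description of the letters in this window, and the promoter entry lay 5480 bases from the start of the main transcript of Tpm1, 4521 from that of Myl12a and 1006 from that of Tagln2.

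Actb and Actg1 code for the cytoplasmic beta and gamma actins, the building blocks of the filament, and their coding sequences are similar. Whether reads were shared between them was not tested. The main coding sequences of both genes had 1125 bases and 375 codons, and 128 bases differed (88.6% identity). The first 60 coding bases, read from the transcripts of the annotation, show the start of the proteins, and the capitals mark the 9 bases that differ.
Actb: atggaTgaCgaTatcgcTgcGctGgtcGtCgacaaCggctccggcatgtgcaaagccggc
Actg1: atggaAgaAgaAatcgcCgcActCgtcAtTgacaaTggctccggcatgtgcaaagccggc

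The 10 genes ranged from the most abundant RNAs of these cells to a gene below the median level. By the sum of exon values over coding transcripts, Actb was highest with 2414 in labeled and 9891 in unlabeled RNA, and its mean lay at percentile 99.6 of 14127 protein-coding genes with a mean exon value above 1. Actg1 followed with 3275 and 7251, so that Actg1 was the higher of the actins in labeled RNA and Actb the higher in unlabeled RNA. Tpm1 and Tpm4 code for tropomyosins, which lie along the filament, and had 2001 and 5006, and 207.4 and 296.0. Among proteins that act on monomers and filaments, Pfn1 (profilin, which loads monomers onto growing ends) had 1200 and 3264, and Cfl1 (cofilin, which severs filaments) had 751.0 and 1119. Tagln2, a transgelin that binds actin, had 266.8 and 553.6, and Myl12a, a regulatory light chain of nonmuscle myosin II, had 1036 and 1192. Vcl, the adhesion protein vinculin, had 27.1 and 109.4, and Srf itself had 11.6 and 24.9. Srf was thus the lowest of the 10, at percentile 36.2, and 7 of the 10 were in the top decile of mean exon value. With no replicates, no neighbours in this order can be said to differ beyond their spread. The sums count several transcripts of a gene, so the plot of exon levels shows the main transcript instead, the coding transcript with the highest mean exon value among those with an intron value.

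**Figure D1:**
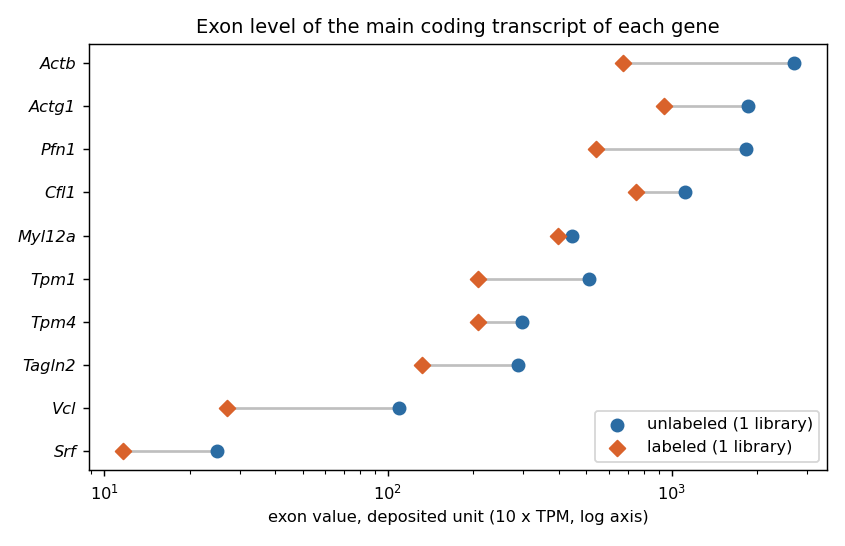
Exon value of the main coding transcript of each gene in the deposited unit, 10 times TPM, on a log axis, with 1 point for the labeled and 1 for the unlabeled library and no error bars because there is 1 library each. In all 10 genes the unlabeled value is the higher, from 2697 against 674.6 for Actb-201 to 24.9 against 11.6 for Srf, and the gap is narrowest for Myl12a-201 (446.7 against 398.1).

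The comparison of labeled with unlabeled RNA asks which genes had more or less of their RNA made within the pulse than other genes of the same cells. The ratio was centred on the median of the 14127 genes, whose labeled value was 0.837 times the unlabeled one, and a gene was called higher or lower at 1 or more on the log2 scale, a 2-fold difference. Actb, Vcl, Pfn1 and Tpm1 were called lower in labeled RNA (4 of 10, against 14.8% of all genes). None of the 10 was called higher (against 21.9% of all genes), and 9 of 10 lay below the median gene. The median centred log2 ratio of the 10 was −0.87. Abundant genes in general leaned the same way: in the top decile of 1413 genes the median was −0.47, with 24.5% called lower and 11.5% called higher.

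Among the actins, the labeled value of Actb was 0.244 times the unlabeled value, which is 3.43-fold below the median gene, a centred log2 ratio of −1.78. For Actg1 the ratio was 0.452, or −0.89 centred, so that the gamma actin fell short of the call. Among the tropomyosins, Tpm1 was 2.09-fold below the median gene (−1.07 centred) and Tpm4 1.19-fold below it (−0.26 centred). Pfn1 was at −1.19 and Cfl1 at −0.32 on the centred log2 scale, so that profilin was called and cofilin was not. Tagln2 was at −0.80. Vcl, the longest of the 10 genes, was as low as Actb, with a ratio of 0.247 (3.39-fold below the median gene, −1.76 centred). Srf had a ratio of 0.466 and a centred log2 ratio of −0.85, close to Actg1, Tagln2 and the median of the 10. Myl12a, with a ratio of 0.869 (0.05 centred), was the one gene above the median gene, and stayed above it under all 10 settings tried.

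Actb and Vcl were called lower under all 10 settings and Pfn1 under 8, but Tpm1 under 6. For mature RNA (exon minus intron value), Vcl was at −2.81 and Actb at −1.04, where 22.2% of all genes were lower. The likeness of Vcl and Actb thus depends on the setting. Srf was called lower under 3 settings, Actg1 under 2 and Tagln2 under 1. Actg1 ran from −1.185 (leakage subtracted) to −0.05 (mature RNA), so its difference from Actb in the call depends on the setting. Centred on genes of the same decile of mean exon value, Pfn1 (−0.72) and Tpm1 (−0.59) lost the call while Srf reached it (−1.03), and Cfl1 (0.15) and Tpm4 (0.17) came to lie above their centre.

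Introns report on unspliced RNA, and the intron to exon ratio, computed within a library, does not depend on the scale between libraries. For the main transcripts of the 10 genes the median ratio was 0.0766 in labeled and 0.0138 in unlabeled RNA. Over 13186 protein-coding genes the medians were 0.448 and 0.0838. In labeled RNA 8 of the 10 lay below the lower quartile of all genes (0.212), and in unlabeled RNA all 10 lay below the median. No main transcript of the 10 had a labeled ratio of 1 or more (against 21.5% of all genes), and the unlabeled intron value was listed at 0 for 2 of the 10, Cfl1 and Tagln2 (against 5.19% of all genes). In 9 of the 10 the unspliced length of the main transcript was below the median of all genes, 19221 bases. Across all genes the labeled ratio and the unspliced length had a Spearman correlation of 0.347 as a description over 13186 genes that share both libraries.

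Actb-201, with 6 exons on the minus strand of chromosome 5 (142903115 to 142906754 on GRCm38), had exon values of 674.6 and 2697 and intron values of 4.87 and 0.18 in labeled and unlabeled RNA. Its ratios of 0.00722 and 6.67e-05 were the lowest above 0 among the 10. Actg1-202, also with 6 exons (chromosome 11, 120345690 to 120348542, minus strand), had intron values of 28.2 and 4.64 beside exon values of 939.3 and 1855, and ratios of 0.0300 and 0.00250. The gamma actin thus carried more intron signal per exon signal than the beta actin in both pools. Tpm1-204 (chromosome 9, 67028048 to 67043733, minus strand) had ratios of 0.135 and 0.0270, and Tpm4-201 (chromosome 8, 72135259 to 72153142, plus strand) had 0.119 and 0.0116. Tpm1-204 had the lowest labeled ratio of the 16 coding transcripts of Tpm1, and by gene sums Tpm1 was at 0.237 against 0.119 for Tpm4.

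Pfn1-202, with a single intron (chromosome 11, 70652622 to 70654598, minus strand), had intron values of 50.9 and 46.8, the least separated of the 10, and ratios of 0.0942 and 0.0255. Cfl1-201 (chromosome 19, 5490485 to 5494029, plus strand) had an intron value of 12.9 in labeled RNA and was listed at 0 in unlabeled RNA, with a labeled ratio of 0.0172. Tagln2-201 (chromosome 1, 172501252 to 172506733, plus strand) had an intron value of 2.80 in labeled RNA, was listed at 0 in unlabeled RNA, and had a labeled ratio of 0.0212. Cofilin and transgelin-2 were thus the genes whose introns were seen in new RNA alone, at an unknown depth. Myl12a-201 (chromosome 17, 70994294 to 70998012, minus strand) had ratios of 0.0590 and 0.0161.

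Vcl and Srf stood apart from the other 8 by their labeled ratio. Vcl-201, with 21 exons over 104279 bases (chromosome 14, 20929398 to 21033676, plus strand), had intron values of 19.3 and 2.69, and its labeled ratio of 0.712 was above the median of all genes while its unlabeled ratio was 0.0246. Srf-201, with 7 exons (chromosome 17, 46548329 to 46556175, minus strand), had intron values of 5.77 and 0.69 and ratios of 0.497 and 0.0277. These were also the least abundant of the 10. The transcription factor and the adhesion protein thus had labeled RNA richer in introns than the other 8, but not unusual among all genes. Their labeled ratios were at percentiles 54.4 (Srf) and 68.0 (Vcl) of all main transcripts. Their unlabeled RNA was as poor in introns as that of Pfn1 and Tpm1.

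**Figure D2:**
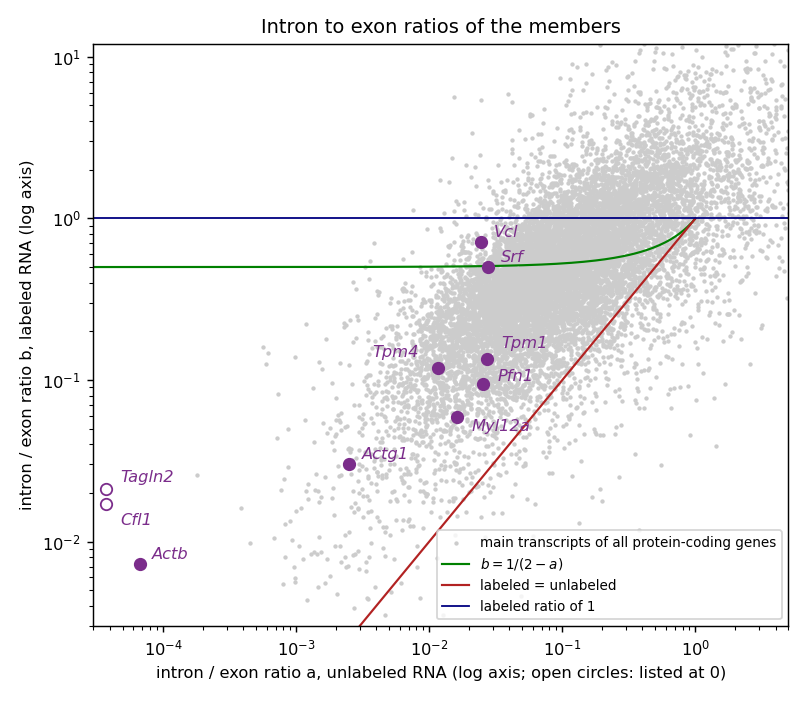
Intron to exon ratio of the main transcripts in unlabeled RNA (a, horizontal) and labeled RNA (b, vertical), both on log axes, with the 10 genes in purple, other protein-coding genes in grey (those at 0 or beyond the axes are not drawn) and Cfl1 and Tagln2 as open circles because their unlabeled ratio is 0. Vcl (0.712) lies above the line b = 1/(2 − a), Srf (0.497) just below it, and the other 8 at labeled ratios of 0.135 or less.

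Under the model of Zeisel, in which premature RNA is synthesized, processed to mature RNA and then degraded at constant rates, both ratios and the labeling time give the rates of a transcript. Ratios are compatible with this model where the unlabeled ratio is below the labeled one and the latter is below 1, which held for 10 of 10 main transcripts (against 70.6% of all genes). An unlabeled ratio of 0 gives no rates, which left 8 of the 10. Vcl had a single exact solution, with a degradation half-life of 182.6 min. Srf, whose labeled ratio of 0.497 lay just below the line at 0.507, had 2 solutions, with half-lives of 28.1 and 0.242 min, and the first was kept as the nearer to the rates of other transcripts. For the other 6 no exact solution exists (against 62.9% of 8896 genes with rates), and the nearest point on the model was taken.

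These nearest points gave half-lives of 290.7 min for Actb and 107.9 min for Actg1. For Myl12a the half-life was 74.1 min and for Pfn1 49.4 min. The tropomyosins Tpm1 and Tpm4 had 33.6 and 33.4 min. The median over the 8 genes was 61.7 min, beside 19.6 min over all genes with rates. The point for Actb lay 3.42 from the measured ratios in log units, that for Actg1 2.53 and that for Myl12a 2.21, beside a median of 0.807 over the 5600 genes without an exact solution. Fitted over both variables instead, these 6 half-lives fell to between 4.10 and 15.5 min and the median of the 8 to 6.58 min. Over the settings that gave it rates, the value for Vcl ran from 177.4 to 378.0 min, a 2.13-fold range and the narrowest of the 8. With 1 coding transcript and a single exact solution, Vcl could not move under several of these settings, so this range is no measure of certainty. The 378.0 min came from reading the second library as total RNA. After subtraction of leakage the labeled ratio of Vcl was 1.63, which gives it no rates.

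Several of these genes have more than 1 coding transcript, and the labeled to unlabeled exon ratio was compared among them. All 5 coding transcripts of Actb were at or below −1 on the centred log2 scale, between −2.28 (Actb-203) and −1.42 (Actb-208), with unlabeled exon values from 1643 to 2697. The 5 coding transcripts of Actg1 lay between −1.40 (Actg1-205) and −0.57 (Actg1-204), and 2 of them reached the call. Of the coding transcripts of Pfn1, Pfn1-202 was at −1.51 and Pfn1-201 at −0.86. The 5 of Myl12a lay between −0.18 and 0.37. Of the 3 of Tagln2, Tagln2-204 reached the call, and the others were at −0.87 and −0.54. Transcripts of a gene share exons and hence reads, so they are not independent measurements. Ratios of transcripts, here and for Tpm1 below, are centred on the median of gene sums. The share of all coding transcripts that reach the call was not computed, so these counts have no background.

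Tpm1 is expressed from different promoters and with alternative exons, which give long and short tropomyosins. Its 16 coding transcripts began either at an upstream start (10 transcripts, within 263 bases of each other) or at an internal start 5444 to 5697 bases downstream (6 transcripts). The centred log2 ratio ran from −1.27 to −0.79 with a median of −1.07 for the upstream start. For the internal start it ran from −1.70 (Tpm1-208) to −0.51 (Tpm1-209) with a median of −0.98. The classes overlapped in this measure, in the labeled intron to exon ratio (medians 0.246 and 0.282) and in the unlabeled exon value (medians 291.4 and 326.1). In all, 9 of the 16 reached the call.

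In some transcripts part of an intron is exon in the gene's main transcript, and the intron to exon ratio is given for these with the share of such bases. In Actg1-201, 666 of 1567 intron bases (42.5%) are exon in Actg1-202. Its intron values were 220.2 and 653.1, and its unlabeled ratio of 0.445 exceeded the labeled one of 0.319, the only such case among the 40 coding transcripts. In Actb-207, 240 of 1960 intron bases are exon in Actb-201, and its unlabeled intron value was 200.0 beside 0.18 for Actb-201. In Actb-203, with 150 of 1650 such bases, the value was 80.1. The unlabeled ratio did not follow the share of such bases throughout: Actg1-203, with 27.8%, was at 0.0037, below Actg1-205, with none, at 0.0126, and Tagln2-202 and Tagln2-204, with 1.10% and 1.57%, were listed at 0. The 4 coding transcripts other than the main ones without such bases all belong to Actb and Actg1, so these can be compared only within those genes. Within Actb, the unlabeled ratios of Actb-207 and Actb-203 were 0.108 and 0.0488, against 0 for Actb-208 and 0.00026 for Actb-202, which have no such bases. Within Actg1, Actg1-201 was above and Actg1-203 below Actg1-204 (0.0057) and Actg1-205, which have none. Reads from spliced RNA of another transcript can count as intron in these cases, and their part in the ratios was not tested. In Myl12a-204 such bases were 2.63% of the intron, the exon values were only 22.3 and 20.6, and the ratios were 2.15 and 1.35, the only labeled ratio of 1 or more among the 40.

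**Figure D3:**
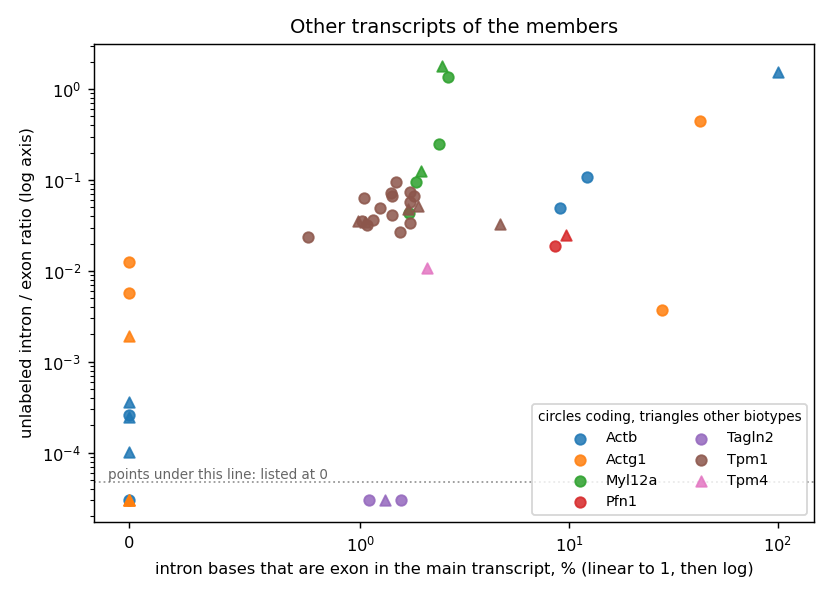
Unlabeled intron to exon ratio (log axis, with values listed at 0 drawn under the dotted line) of the transcripts of the 10 genes other than the main ones, against the percent of intron bases that are exon in the main transcript (linear to 1, then log), with circles for coding transcripts and triangles for other biotypes. The 4 coding transcripts with no such bases, all of Actb and Actg1, have ratios of 0.0126 or less, and Actg1-201 with 42.5% is at 0.445 but Actg1-203 with 27.8% at 0.0037.

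Near-identical copies elsewhere in the genome make some of these values uncertain. Copies were sought only among annotated transcripts with a deposited exon value, not in the whole genome. A transcript was counted as a copy where it matched at least 50% of the main coding sequence at 90% identity or more. For Actg1 there were 6 processed pseudogenes, with summed exon values of 1475 in labeled and 4527 in unlabeled RNA, the closest (Gm12715, 99.6% identity) at 440.9 and 1371. For Cfl1 there were 3, summing to 1369 and 2368, above the 751.0 and 1119 of Cfl1 itself. Gm7809, a copy of Tpm4 at 96.8% identity, had 382.4 and 602.6 against 207.4 and 296.0 for Tpm4. For Actb there was the pseudogene Gm15725 (91.8% identity, 392.2 and 1496), and a transcript of the coding gene Lrrc58 (133.5 and 520.9) also met the limits. Myl12a had the paralog Myl12b (96.5% identity, 253.4 and 294.9) and the pseudogene Gm6517 (66.3 and 37.6). Reads that match a gene and its copy can be divided in either direction, so the levels of these 5 genes and their labeled to unlabeled ratios are uncertain. No copy was found among these transcripts for Srf, Vcl, Tpm1, Pfn1 or Tagln2.

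The muscle actins are paralogs of Actb and Actg1 and stayed far below them. Acta1 had exon values of 29.8 and 89.7, Acta2 10.9 and 38.6, Actc1 5.32 and 19.0, and Actg2 2.67 and 7.56. Their centred log2 ratios, from −1.58 to −1.25, were all past the call on the lower side. Each kept the call under all settings that gave it a value except at most 1 (9 of 10 for Acta1, Acta2 and Actc1, and 8 of 8 for Actg2). Whether reads of Actb and Actg1 were counted for these paralogs was not tested. The search for copies asked for 90% identity, and the coding sequences of Actb and Actg1 themselves share 88.6%. Other relatives were mixed. Tpm3, another tropomyosin with a high level, was at −1.42 (1293 and 4125), while Tpm2 was at 0.38 (116.6 and 107.3). Cfl2, the muscle cofilin, was at −0.80 and its relative Dstn at −0.24. Pfn2, the other profilin, was at 1.15 (71.3 and 38.3), and between 0.04 and 1.30 over the settings, with the call on the higher side under 8 of 10. Of the myosin light chains, Myl12b was at 0.04 and Myl9 at 0.00, next to Myl12a and on either side of the median gene depending on the setting, and the essential light chain Myl6 was at 1.43 (506.5 and 224.1). Tagln was at 0.88 (3.54 and 2.3) and Tagln3 at 4.21 (5.10 and 0.33), the latter called higher under 8 of 8 settings. Like those of Actg2, these exon values are low, so all these ratios rest on little signal.

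Other genes of the pathway were grouped in lists, and calls are given against the same background, 14.8% of all genes lower and 21.9% higher. Some lists share genes, so their counts overlap, while the 79 below count each gene once. Over 79 genes of these lists with a mean exon value above 1, tubulins and immediate early genes aside, 30 were lower and 9 higher, with a median centred log2 ratio of −0.80. Centred within the decile of level, 14 were lower and 10 higher (median −0.59, against 14.2% and 19.6% of all genes). For mature RNA (exon minus intron value of the main transcript) 18 of 73 were lower and 10 higher (median −0.54, against 22.2% and 25% of all genes). By exon value the crosslinkers and membrane linkers and the adhesion partners of vinculin had the lowest medians. Their main transcripts had median unspliced lengths of 65769 and 47547 bases. Across all genes the centred ratio had Spearman correlations of −0.292 with unspliced length and −0.295 with mean exon value. The nucleation and elongation factors were longer still (91876 bases), with a median ratio of −0.73. The part of length was not tested. Of 12 actin crosslinkers and membrane linkers, 8 were lower and none higher (median −1.23), among them the bundling protein Fscn1 at −2.05 (90.3 and 445.4) and the membrane linker Msn at −1.53 (137.1 and 473.6). At the upper end of this list were Actn4 (−0.96) and Ezr (−0.61). Of 10 adhesion partners of vinculin, 6 were lower and none higher (median −1.32). E-cadherin, Cdh1, was at −1.39 (403.4 and 1261) and integrin beta 1, Itgb1, at −1.25, while the catenins Ctnna1 and Ctnnb1 were at −0.86 and −0.76. Within the decile of level 3 of the 12 and 4 of the 10 were lower, with medians of −0.75 and −0.87. For mature RNA 2 of 11 and 3 of 9 were lower, with medians of −0.89 and −0.38, and these lists were then no longer the lowest.

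Of 21 other cytoskeletal targets of SRF, 9 were lower and 3 higher (median −0.90), with Tpm3 and the filamin Flna (−1.32) lowest among the abundant ones. The 9 are the muscle actins and Tpm3, described above, and genes that another list also holds, Flna among them. For mature RNA 1 of 20 was lower and 4 were higher (median −0.53). Of 7 immediate early targets, none was lower and 1 was higher (median −0.45), the 1 being Fos at exon values of 2.34 and 0.57, and the abundant members were Mcl1 (−0.91) and Egr1 (−0.55). The immediate early median was 0.03 for mature RNA, over 4 genes. By exon value the cytoskeletal targets had a lower median than the immediate early ones, a difference without a test.

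Genes that build and turn over filaments split both ways. Of 9 subunits of the Arp2/3 complex, which nucleates branched filaments, 4 were lower and 2 higher (median −0.32), from Actr2 at −1.38 (302.6 and 939.4) and Arpc4 at −1.35 to Arpc1b at 0.77 and Arpc3 at 1.80 (284.4 and 97.4). Within the decile of level none of the 9 was lower and 3 were higher, and the median turned to 0.15. Of 13 nucleation and elongation factors, 3 were lower and none higher (median −0.73), with Wasf1 at −1.31 and the formin Fmnl2 at −1.29, and with Diaph2 at −0.17 and Cttn at 0.23 at the upper end. For mature RNA 8 of the 13 were lower (median −1.14), and within the decile of level 1 was. Of 15 monomer, severing and capping proteins, 3 were lower and 3 higher (median −0.67). The capping subunit Capza1 (−1.25) and the monomer binder Twf1 (−1.21) were the lowest abundant ones. The thymosins Tmsb4x at 1.52 (1195 and 496.8) and Tmsb10 at 1.42 (1335 and 597.1), which sequester actin monomers, were the highest, so that these small proteins and profilin Pfn1, all monomer binders, were called in opposite directions. Pfn1 kept its call under 8 of 10 settings, and the other profilin, Pfn2, was on the side of the thymosins at 1.15. Of 6 genes of nonmuscle myosin II, 1 was lower and 1 higher (median −0.31), with the heavy chain Myh10 at −0.62. For comparison with another cytoskeletal polymer, 1 of 10 tubulin genes was lower and none higher (median −0.35, and −0.01 within the decile of level), the one being Tubb5 at −1.08, with Tuba1b at −0.52, Tubb4b at −0.13 and Tubb3 at 0.01. For mature RNA the medians of the Arp2/3, myosin and tubulin lists were above 0, at 0.32, 0.50 and 0.33.

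**Figure D4:**
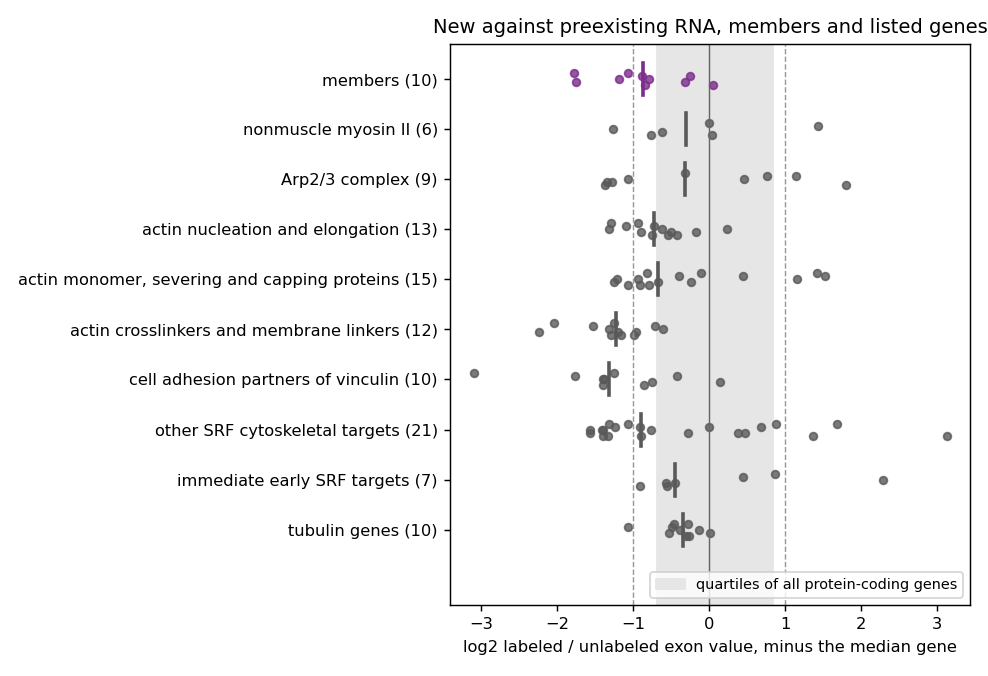
Centred log2 ratio of labeled to unlabeled exon value for each gene of each list (1 point per gene, the number of genes in parentheses, vertical bars the medians), with the quartiles of all protein-coding genes in grey and the call at −1 and 1 as dashed lines. The 10 genes have a median of −0.87, crosslinkers and membrane linkers −1.23, adhesion partners −1.32 and tubulins −0.35.

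The genes most like Actb and Srf were sought among 2725 protein-coding genes. Their main transcripts had a mean exon value of at least 100 and intron values above 0 in both pools. Genes with an unlabeled intron value listed at 0 were thus not candidates. The distance was taken over 3 log2 measures of the main transcript, the labeled to unlabeled exon ratio and the intron to exon ratios of both pools. The nearest to Actb were Ddx18 at a distance of 2.45, Lars2 at 3.20 and Arhgdia at 3.63. No other gene among these candidates came within 2 log2 units of Actb, whose position rests on an unlabeled intron value of 0.18 at an unknown depth. Srf, by contrast, had near neighbours in Zbtb44 at 0.0609, Mcm10 at 0.194 and Haus2 at 0.207, each with a labeled intron to exon ratio between 0.446 and 0.507. These distances rest on 1 library per pool.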

How the data were processed

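Labeled and unlabeled RNA of wild-type mESC were measured in 1 library each. The authors removed reads of ribosomal RNA, aligned the rest to exonic and intronic sequences (Ensembl, mm10/GRCm38) with STAR 2.5.0 and quantified each transcript with RSEM. The deposited values, called TPM by the authors, were treated as a score, since each column of exon and intron values sums to 10 times a TPM total. Read depth cannot be recovered from them, so no interval is given.

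Biotypes, coordinates and coding sequences came from GENCODE M21 (GRCm38), which held 90.9% of the 121429 transcripts. Exon values were summed over the protein-coding transcripts of a gene, kept above a mean of 1, and the log2 ratio was centred on the median gene, with no pseudocount. Intron to exon ratios were taken in the main transcript. Rates followed Eqs. 10 to 17 of the study with T = 10 min, on 4000 grid points refined by bisection, after a check on simulated rates. Of several solutions, the one nearest the median rates of 2525 transcripts with a single solution was kept. Copies were sought with BLAST among annotated transcripts with a deposited exon value. The authors' other libraries were not analysed here, and 1 list of genes is not reported here.

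Named were all 10 genes, 14 relatives, the 2 highest and 2 lowest genes of each reported list with a mean exon value of at least 100 (genes past these ends, where a list had fewer, count under both), and the 3 nearest genes of Actb and Srf. The transcripts singled out for intron bases, the copies and the promoters with a match were chosen after their values were seen. The genes and lists were chosen with earlier results of these data known. Alternatives covered the filter, the pseudocount (1 and 0.1), biotypes, the main transcript, leakage, mature RNA, the level decile and the rate fit. Software was matplotlib 3.10.9, scipy 1.17.1, pandas 2.3.3 and numpy 2.4.6 under Python 3.11.15.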

Additional observations from a re-analysis of the deposited data

How the results depend on the processing

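No replicate could be left out, and a value was counted as moved where it changed by 1.5 times or more. No setting turned the direction of a called gene. Of the 10, the number lower in labeled RNA ranged from 3 to 5 of 10, except for 7 after subtraction of leakage (0.142 times the unlabeled value), where 21.3% of all genes were lower. Over the settings other than leakage, the share of all genes lower ran from 11.3% with a minimum mean of 10 to 22.2% for mature RNA. For mature RNA 3 of the 10 were lower, the count nearest to that share. The median centred log2 ratio ranged from −1.15 (leakage subtracted) to −0.34 (mature RNA, exon minus intron). The median gene itself shifted by −0.14 with a minimum mean of 10, by −0.25 with leakage subtracted and by −0.71 for mature RNA. Tpm4 and Cfl1 lay above the centre for mature RNA and within deciles, the setting added after the data were seen. With gene sums in place of main transcripts the median intron to exon ratios were 0.120 (labeled) and 0.0262 (unlabeled). The median half-life was 6.58 min with Eq. 15 over both variables and 105.3 min for exact solutions only. Single half-lives ranged from 0.242 to 150.4 min for Srf and from 15.5 to 746.4 min for Actb. The causes of these shifts were not tested. No paired analysis was possible because each group holds 1 library. Unknown depth limits the low intron values most, such as 0.18 for Actb, and the values listed at 0.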

Other observations

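The 10 genes also have 19 transcripts of other biotypes, which enter the results above in the plot of intron bases and in the setting with all biotypes. Actb-209, a processed transcript whose whole intron (180 bases) is exon in Actb-201, had exon values of 789.5 in labeled and 3339 in unlabeled RNA and intron values of 831.0 and 5172. The nonsense-mediated decay transcripts Actg1-206 (444.2 and 1377), Pfn1-204 (607.5 and 1705), Tpm1-220 (142.0 and 409.6) and Tpm1-218 (141.7 and 311.6) had centred log2 ratios of −1.38, −1.23, −1.27 and −0.88, within the range of the coding transcripts of their genes. The retained-intron transcripts of Myl12a, Myl12a-203 at 0.64 and Myl12a-205 at 1.09, were above all 5 coding transcripts of that gene. These transcripts share exons with the coding ones.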
